A study of Mus musculus with 31 samples.

Results

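Midazolam-exposed mice kept with a running wheel were compared at 8 weeks with mice that had received water, using RNA from sorted dentate gyrus cells. The comparison used 6 of the 31 samples listed for the series: RUN MDZ 8w (3 libraries) and Control 8w (3 libraries). Genes were kept where all 6 libraries were above 0 and the mean reached 20 TPM (a length-corrected share of a library's transcripts), which left 8485 of 24062 genes. At the border, Rxra (mean 19.9998 TPM) was left out and Zswim1 (20.0014 TPM) was kept. Of the 9334 genes with a mean of at least 20 TPM, 834 were left out because a Control 8w library listed them at 0 and 75 because a RUN MDZ 8w library did.

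All animals were Nestin-EGFP mice of the C57BL/6 strain, in which a fluorescent protein under Nestin control marks neural stem cells and the cells descended from them. RUN MDZ 8w mice were injected in the abdomen with midazolam, a benzodiazepine that strengthens GABA-A receptor signalling, at 10 mg/kg on postnatal days 7, 8 and 9, and were housed with a wheel. Control 8w mice received distilled water on the same days, and the labels mention a wheel only for exposed mice. MDZ 8w (3 libraries, the same drug and dose, no wheel) is given beside the comparison wherever it bears on a value. No group of unexposed runners was analysed here, so the drug and the wheel, which differ together between the groups compared, cannot be told apart. Each library was made from about 30000 sorted cells pooled from 3 to 5 mice, so a library is a pool and not 1 animal.

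In the adult dentate gyrus, radial glia-like stem cells divide rarely and give rise to intermediate progenitors, neuroblasts and granule neurons. The same niche holds astrocytes, oligodendrocyte precursors that mature into myelinating cells, and a dense vessel bed of endothelial cells and pericytes. Voluntary running is known to raise the number of new granule neurons and to act on vessels and glia, with growth factors such as VEGF and IGF1 among the known mediators. Nestin is also found in some endothelial cells, pericytes and oligodendrocyte precursors, so a sort on a Nestin reporter can hold them. In such bulk samples, fewer cells of a type and less RNA per cell cannot be told apart.

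Some features of the libraries run along the groups and others do not. Control 8w libraries listed 11163 to 11397 genes above 0, against 15568 to 15906 in RUN MDZ 8w and 15382 to 16709 in MDZ 8w, so detection separates the groups compared and its part in the results was not tested. Of the genes detected in Control 8w replicate 2 or replicate 3, 97.4% were detected in both, and the Spearman correlation across genes was 0.992; for replicate 1 the overlap with them was 78.4% and 77.8%. No other pair within a group was as close, and the pair may be a single library deposited again, so their mean was used as 1 sample (Control 8w n = 2, RUN MDZ 8w n = 3). The Y-linked Ddx3y was at 0, 29.1 and 0 TPM in RUN MDZ 8w and between 48.6 and 58.2 TPM in Control 8w. In MDZ 8w it was at 72.3, 58.1 and 51.3 TPM. RUN MDZ 8w replicates 1 and 3 also listed the Y-linked Eif2s3y at 0 TPM and Kdm5d at 0.03 and 0 TPM. Their Xist, an X-linked transcript, was the highest of the 8-week libraries, at 663 and 620 TPM. All Control 8w and MDZ 8w libraries listed these Y-linked genes above 0. The sex make-up of the pools thus differed in part along the groups compared, and its part in the results was not tested.

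No gene passed the test. With limma on log2(TPM + 1) and Benjamini-Hochberg adjustment, 0 of 15125 genes with a mean of at least 1 TPM had an adjusted p below 0.05. Among the 8485 genes kept, 0% passed in the higher direction and 0% in the lower direction. At an unadjusted p below 0.05 there were 641 higher genes (7.55%) and 561 lower genes (6.61%), and 105 genes had an adjusted p below 0.1. The same genes gave 319 higher calls (3.76%) and 278 lower calls (3.28%) when all 8-week samples shared 1 estimate of the spread. Values are therefore described below as higher or lower in these libraries.

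As a description that needs no estimate of spread, genes were counted where the 6 libraries did not overlap and the group means lay at least 2-fold apart. For this count the mean was taken over the 3 Control 8w libraries as deposited, so the near-identical pair weighs as 2. This held for 674 genes higher in RUN MDZ 8w (7.94%) and 407 genes lower (4.8%), so 62.3% of such genes were higher. With the pair as 1 sample in the means there were 682 and 426. Counts of genes without overlap include the 2-fold minimum unless stated. The 20 TPM filter used the mean over both groups, so a gene could pass it through 1 group alone. Kdr and Aqp4, for example, passed only through the runners and Cd68 only through Control 8w. With no fold minimum, 1321 of the 8485 genes kept were higher without overlap and 1321 were lower. After quantile normalization the counts were 507 and 590 (46.2% higher), so the balance of directions depended on the scaling. The median log2 change over all genes kept was 0.07, and 54.1% of them were positive. The median was -0.02 without Control 8w replicate 1 and -0.03 after quantile normalization. Genes with short spans in the genome were lower more often: the median log2 change was -0.17 in the shortest of 5 equal groups and 0.17 in the longest, and 159 of the non-overlapping lower genes lay in the shortest group against 46 in the longest.

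Gene lists are described by their counts and their median log2 change. Each list's count by 2-fold without overlap stands beside 7.94% higher and 4.8% lower over all genes kept. Summed levels of a list cover all its genes, with those that the filter left out. Myelin, endothelial, running-linked, growth factor feedback, precursor and astrocyte lists had medians of 0.92 to 2.26 on the log2 scale. Ribosomal protein, granule lineage and S phase lists had medians of -0.63, -0.59 and -0.56. Lists for chromatin regulators (-0.12), the respiratory chain (-0.16) and genes often used as even references (-0.11) lay near the median of all genes.

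**Figure D1:**
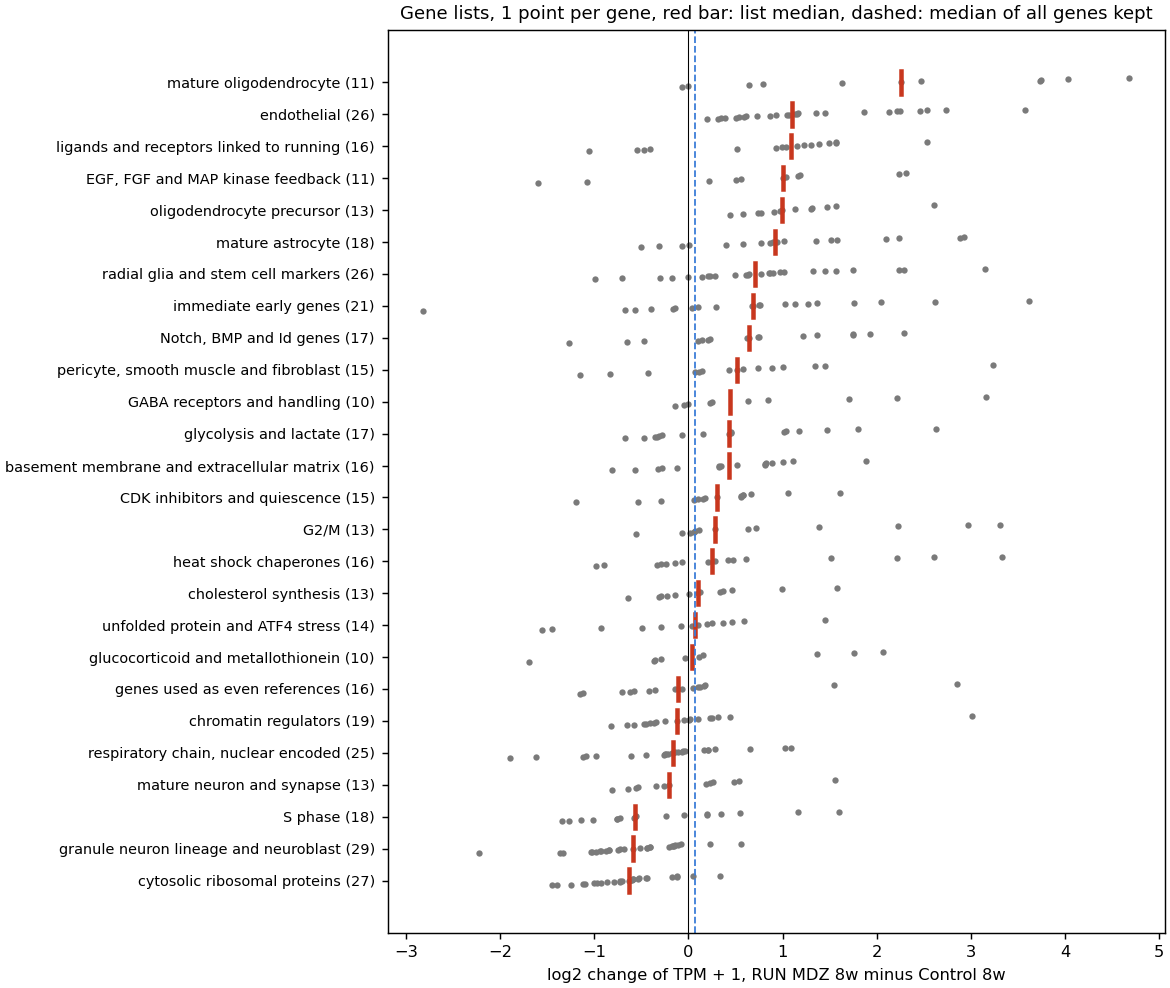
The log2 change of TPM + 1 (RUN MDZ 8w minus Control 8w) is plotted for each gene of the lists with 10 or more genes kept, 1 point per gene, with a red bar at the list's median and a dashed line at the median of all genes kept (0.07). The mature oligodendrocyte list has the highest median (2.26) and the ribosomal protein list the lowest (-0.63), with wide spread inside most lists.

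Genes of mature, myelinating oligodendrocytes had the highest median of the lists with 10 or more genes kept. Of 11 members kept, 7 were higher in every RUN MDZ 8w library by at least 2-fold, 0 were lower, and the list's median log2 change was 2.26. Cldn11, which forms the tight junctions of myelin, was at 16.8, 21.2 and 30.05 TPM in Control 8w and at 218, 330 and 344 TPM in RUN MDZ 8w. The groups were far apart, with a log2 change of 3.75 ± 0.34 (SE, adjusted p = 0.0722), while MDZ 8w was scattered at 71.5, 6.93 and 39.7 TPM.

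The other structural myelin genes followed. Cnp, an enzyme of the myelin sheath, was at 190, 73.5 and 87.2 TPM in Control 8w and at 539, 616 and 635 TPM in RUN MDZ 8w. Mbp, myelin basic protein, was at 77.9, 24.1 and 22.2 TPM against 185, 253 and 299 TPM. In both genes the highest control library was replicate 1, and it was still below the lowest running library. Ugt8a, which makes the myelin lipid galactosylceramide, ranged from 0.04 to 23.4 TPM in Control 8w and from 113 to 141 TPM in RUN MDZ 8w. Mog and Mal were also higher without overlap.

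Not every gene of the list was higher. Trf, the iron carrier transferrin, gave a log2 change of -0.01 ± 0.37, and the chaperone Cryab one of -0.07 ± 0.35. Car2 and Enpp2 overlapped between the groups. Mag, a myelin adhesion protein outside the genes kept, was at 12.5, 0 and 0 TPM in Control 8w and at 113, 191 and 204 TPM in RUN MDZ 8w. Mobp was listed at 0 in all 3 Control 8w libraries and at 29.2, 66.4 and 42.6 TPM in RUN MDZ 8w.

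MDZ 8w differs from RUN MDZ 8w by label in the wheel, and in these libraries also in the Y-linked signal given above. Against MDZ 8w the background was 1.61% of genes called higher and 0.837% called lower (137 and 71 of 8485). Of the 11 myelin genes, 4 were called higher there, among them Mbp (2.75 ± 0.35, adjusted p = 0.00961), Cnp (2.33 ± 0.38, adjusted p = 0.0245) and Cldn11 (3.35 ± 0.68, adjusted p = 0.0453). Both comparisons share the RUN MDZ 8w libraries. The summed level of the list was 1107 to 1311 TPM in Control 8w, 582 to 1806 TPM in MDZ 8w and 3624 to 5326 TPM in RUN MDZ 8w.

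Oligodendrocyte precursor genes were less clear. All 13 members kept had positive log2 changes (median 0.99), but only Lhfpl3 was higher in every library by 2-fold, and Control 8w replicate 1 was rich in these transcripts. Pdgfra, the growth factor receptor that defines precursors, was at 348, 125 and 123 TPM in Control 8w and at 1110, 253 and 686 TPM in RUN MDZ 8w. Olig1 was at 1747, 384 and 383 TPM against 2380, 867 and 1338 TPM, with replicate 2 the lowest of the running libraries in both genes. Without Control 8w replicate 1, 12 of 13 members were higher by 2-fold without overlap and the median was 2.07, and without RUN MDZ 8w replicate 2 the count was 9. The higher count over all genes kept rose as well, from 674 to 1254 and 829 in these settings. The same order appeared in MDZ 8w, where Pdgfra was at 640, 128 and 250 TPM. Libraries of 1 group thus differed several-fold in precursor transcripts.

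Astrocyte genes were higher in RUN MDZ 8w. Of 18 members kept, 9 were higher in every library by at least 2-fold, 0 were lower, and the median log2 change was 0.92. Slc1a2, the main astrocytic glutamate transporter, was at 259, 243 and 223 TPM in Control 8w and at 697, 596 and 598 TPM in RUN MDZ 8w (1.35 ± 0.19, adjusted p = 0.0824). Aqp4, the water channel of astrocyte endfeet, was at 10.1, 13.3 and 10.5 TPM against 68.2, 145 and 73.6 TPM (2.93 ± 0.47, adjusted p = 0.0824). Gja1, which encodes the gap junction protein connexin 43, was at 67.8, 26.8 and 27.5 TPM against 231, 491 and 300 TPM. For Aqp4 and Gja1, running replicate 2 was the highest library.

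These astrocyte genes did not share 1 pattern against MDZ 8w. Mlc1, an astrocyte membrane protein, was at 125, 134 and 165 TPM in Control 8w, at 381, 486 and 417 TPM in MDZ 8w and at 371, 437 and 425 TPM in RUN MDZ 8w, so both exposed groups were alike in level and above Control 8w. Its difference between the exposed groups was -0.05 ± 0.15. Slc1a2 was at 341, 278 and 329 TPM in MDZ 8w, and the running group was higher by 1.00 ± 0.14 (adjusted p = 0.0156). Of the 18 astrocyte members, 5 were called higher than in MDZ 8w, with Aqp4, Glul (glutamine synthetase) and Atp1b2 among them. Atp1b2, a sodium pump subunit, gave 0.00 ± 0.33 against Control 8w, where replicate 1 (1379 TPM) exceeded every running library.

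**Figure D2:**
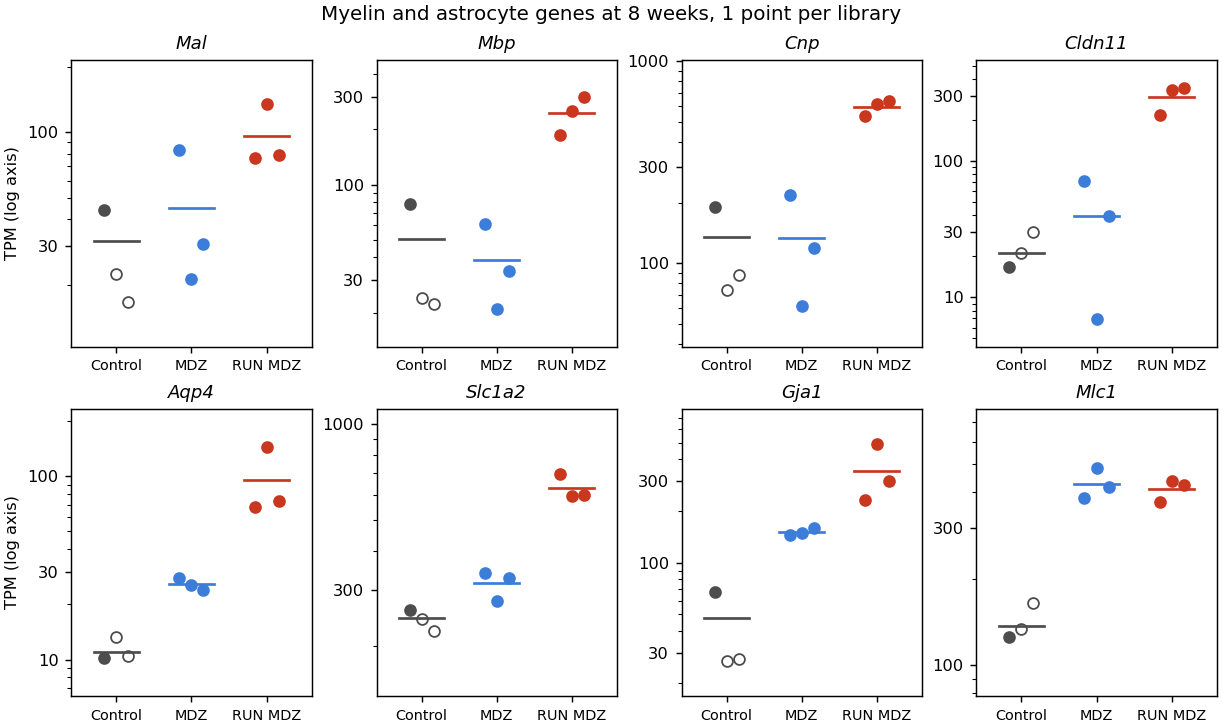
TPM on a log axis is plotted for 4 myelin genes (top) and 4 astrocyte genes (bottom), 1 point per library, with lines at the group means; open circles are the near-identical Control 8w replicates 2 and 3, which enter the mean as 1 sample. RUN MDZ 8w lies above Control 8w in all 8 panels, and the mean of MDZ 8w is close to that of RUN MDZ 8w for Mlc1.

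Radial glia and stem cell markers overlap with the astrocyte list. Of 26 members kept, 7 were higher in every library by 2-fold, 0 were lower, and the median was 0.71. Nes, the intermediate filament whose control sequences drive the reporter, was at 12.2, 26.1 and 24.4 TPM in Control 8w, at 43.8, 85.6 and 44.4 TPM in MDZ 8w and at 39.2, 52.5 and 60.7 TPM in RUN MDZ 8w. Fabp7, a fatty acid binding protein of radial glia, was at 458, 522 and 415 TPM in Control 8w and at 1089, 775 and 768 TPM in RUN MDZ 8w. Clu (clusterin), a secreted chaperone, was at 865, 537 and 572 TPM against 1849, 2618 and 1799 TPM (1.57 ± 0.28, adjusted p = 0.0833).

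Several core stem cell genes were close to Control 8w. Sox2 was at 197, 311 and 266 TPM in Control 8w and at 326, 401 and 293 TPM in RUN MDZ 8w, with overlap. Hes5, a Notch target, gave 0.14 ± 0.37, and Vim, vimentin, gave -0.01 ± 0.25. Hopx and Gfap, markers of quiescent radial glia, were higher in every running library but by less than 2-fold in the means (0.86 ± 0.35 and 0.85 ± 0.33). Hopx and Hes5 were higher in MDZ 8w than in every running library (322 to 393 TPM and 114 to 171 TPM).

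Genes of the granule neuron lineage were lower in RUN MDZ 8w. Of 29 members kept, 27 had negative log2 changes (median -0.59), and 16 were lower in every library, 3 of them by at least 2-fold: Nhlh1, Eomes and Neurod1. Over all genes kept, 1321 of 8485 were lower in every library. Nhlh1, a helix-loop-helix factor of newborn neurons (chromosome 1, 172052292 to 172057596, GRCm38.p6), was at 292, 242 and 290 TPM in Control 8w, at 122, 113 and 160 TPM in MDZ 8w and at 59.3, 54.4 and 62.9 TPM in RUN MDZ 8w. The 3 groups formed separate steps, with a log2 change of -2.23 ± 0.24 against Control 8w (adjusted p = 0.0824) and of -1.13 ± 0.18 against MDZ 8w (adjusted p = 0.0231). Eomes (Tbr2), which marks intermediate progenitors, was at 601, 437 and 400 TPM in Control 8w and at 175, 205 and 205 TPM in RUN MDZ 8w, with MDZ 8w between them at 263 to 371 TPM.

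Neurod1, a factor that drives granule neuron differentiation, was at 923, 1055 and 969 TPM in Control 8w and at 450, 431 and 546 TPM in RUN MDZ 8w (-1.03 ± 0.19, adjusted p = 0.089). MDZ 8w was at 397, 458 and 564 TPM, the same range as the runners. Prox1, the granule cell identity factor, was at 465, 401 and 395 TPM against 222, 201 and 248 TPM. Tubb3 and Stmn1, tubulin and a tubulin-binding protein of young neurons, gave -0.98 ± 0.22 and -1.03 ± 0.25. Dcx, the classic neuroblast marker, did not follow: it was at 147, 351 and 290 TPM in Control 8w and at 241, 235 and 288 TPM in RUN MDZ 8w. Calb2 (calretinin) overlapped as well.

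**Figure D3:**
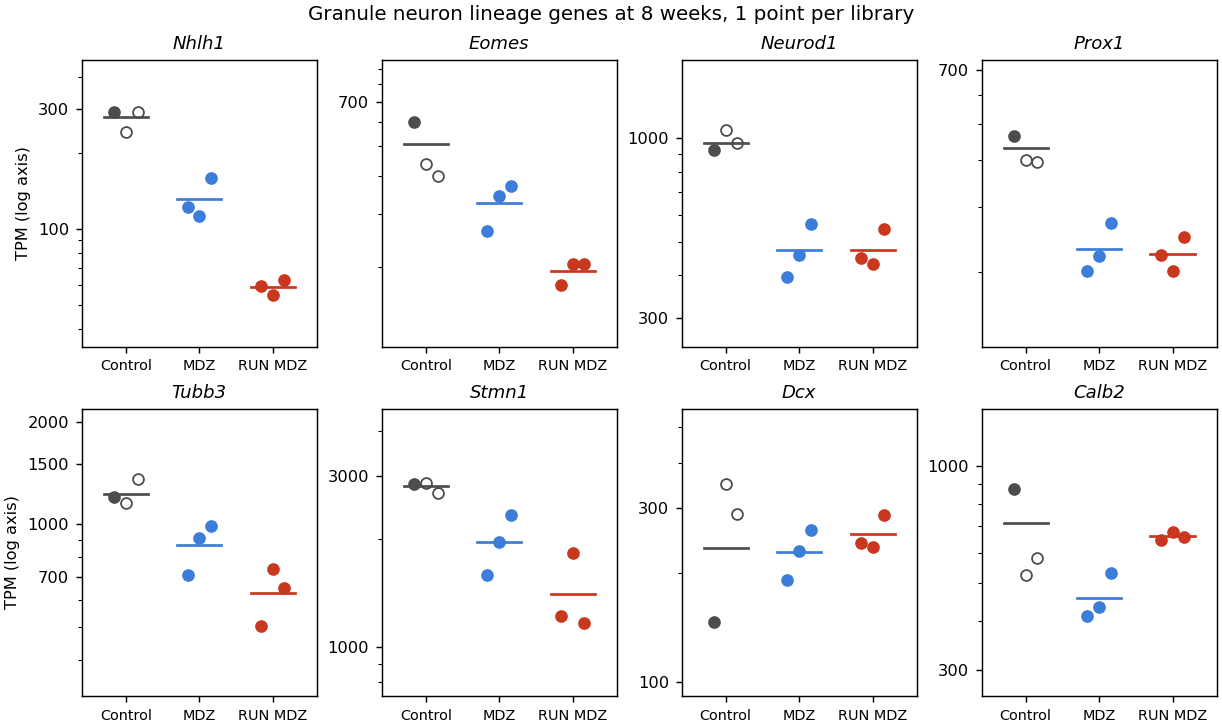
TPM on a log axis is plotted for 8 granule lineage genes in the 3 groups at 8 weeks, 1 point per library with lines at the means; open circles are Control 8w replicates 2 and 3. Nhlh1 and Eomes step down over the 3 groups, Neurod1 and Prox1 are alike in both exposed groups, and Dcx and Calb2 overlap.

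The summed level of the granule lineage list was 12569 to 13349 TPM in Control 8w, 7713 to 10688 TPM in MDZ 8w and 7255 to 8491 TPM in RUN MDZ 8w. The counts depended in part on the libraries: without Control 8w replicate 1, 7 members were lower by 2-fold without overlap, and without RUN MDZ 8w replicate 2 it was 6. The lower count over all genes kept rose as well, from 407 to 675 and 499 in these settings. Mature neuron and synapse genes gave no member past 2-fold without overlap among 13 kept (median -0.21). Vamp2, a synaptic vesicle protein, was the most abundant of them, at 583, 567 and 592 TPM in Control 8w and 397, 362 and 449 TPM in RUN MDZ 8w.

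Cell cycle genes split. Among 18 S phase members kept, 3 were lower in every library by 2-fold and 1 was higher, with a median of -0.56. Pcna, the sliding clamp of DNA polymerase, was at 417, 395 and 321 TPM in Control 8w and at 140, 250 and 198 TPM in RUN MDZ 8w. Dut, which removes dUTP before replication, was at 117, 110 and 109 TPM against 44.7, 51.8 and 43.2 TPM (-1.27 ± 0.29). Cdt1 and Lig1 were also lower, while Slbp, the histone mRNA binding protein, was higher. The S phase sum was 1614 to 1667 TPM in Control 8w, 1711 to 2385 TPM in MDZ 8w and 1144 to 1200 TPM in RUN MDZ 8w, so the runners had the lowest values of the 3 groups.

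Mitotic genes differed from S phase genes in sign: 11 of 13 members kept were positive (median 0.28). Over all 24 listed mitotic genes, the sum was 531 to 724 TPM in Control 8w and 956 to 1008 TPM in RUN MDZ 8w. In MDZ 8w it was 834 to 1510 TPM. The groups compared did not overlap, but the sum includes genes that the filter left out. Of the 24 genes, 6, 2 and 3 were at 0 in the Control 8w libraries and 0 in each running library. The part of these zeros in the gap was not tested. Mki67, the proliferation antigen, was at 43.8, 43.8 and 40.1 TPM in Control 8w and at 54.0, 34.2 and 44.5 TPM in RUN MDZ 8w (0.02 ± 0.38). Top2a gave 0.11 ± 0.29. In the list, 2 members (Kif11 and Smc4) were higher by 2-fold without overlap, both very low in Control 8w replicate 1 (0.03 and 4.81 TPM). Without that library the median of the mitotic list was 0.03 in place of 0.28, and that of the S phase list was -0.32. CDK inhibitors showed no shared direction: Cdkn1a, Cdkn1b and Cdkn1c gave 0.58 ± 0.96, -0.29 ± 0.31 and 0.05 ± 0.53, and Cdkn1a was at 11.9, 91.3 and 103 TPM in the Control 8w libraries. Rb1, the retinoblastoma repressor, was higher in every running library (70.0 to 77.1 TPM against 13.6 to 40.2 TPM), and Txnip, a glucose-responsive arrestin, was lower (96.0 to 185 TPM against 321 to 340 TPM).

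Endothelial genes were higher as a group. All 26 members kept had positive log2 changes (median 1.10), and 12 were higher in every library by at least 2-fold. Cldn5, the tight junction protein of brain endothelium, was at 194, 145 and 185 TPM in Control 8w and at 333, 439 and 447 TPM in RUN MDZ 8w (1.17 ± 0.23, adjusted p = 0.0942). Kdr, the main VEGF receptor, was at 5.88, 12.9 and 9.93 TPM against 57.3, 45.9 and 54.8 TPM (2.53 ± 0.50, adjusted p = 0.0948). Abcb1a, a drug efflux pump of the blood-brain barrier, was at 20.9, 22.7 and 17.4 TPM against 76.0, 76.0 and 79.9 TPM (1.87 ± 0.33, adjusted p = 0.0828). In each of these genes the 3 running libraries lay close together and apart from all controls.

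The same list stood out against MDZ 8w, where 17 of 26 members were called higher and 0 lower. Kdr was at 8.32, 8.52 and 10.0 TPM in MDZ 8w, so Control 8w and MDZ 8w had like levels and the runners were higher by 2.43 ± 0.25 (adjusted p = 0.00476). Slco1a4, an organic anion transporter of brain capillaries, was higher by 2.04 ± 0.18 (adjusted p = 0.00241). Flt1, the decoy VEGF receptor, was lower in MDZ 8w (16.6, 24.3 and 19.5 TPM) than in Control 8w (43.9, 34.9 and 36.9 TPM) and highest in the runners (86.2, 86.3 and 96.6 TPM). Summed endothelial levels were 2580 to 3278 TPM in Control 8w, 1996 to 2628 TPM in MDZ 8w and 4390 to 5725 TPM in RUN MDZ 8w.

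Mural cell genes gave a mixed picture against Control 8w. Of 15 pericyte, smooth muscle and fibroblast members kept, 4 were higher in every library by 2-fold: Acta2, Tagln, Mylk and Col4a2. Acta2, smooth muscle actin, was at 76.4, 43.9 and 44.6 TPM in Control 8w, at 24.7, 18.5 and 27.1 TPM in MDZ 8w and at 129, 149 and 216 TPM in RUN MDZ 8w. Vtn (vitronectin), one of the most abundant pericyte transcripts in brain, went the other way, at 2480, 1939 and 2152 TPM in Control 8w and 1133, 1233 and 1436 TPM in RUN MDZ 8w (-0.84 ± 0.20, adjusted p = 0.115). MDZ 8w held still less Vtn, at 398, 820 and 823 TPM. Control 8w replicate 1 was rich in pericyte transcripts such as Pdgfrb and Rgs5, and without it the median of the list was 1.39 in place of 0.52 and 9 members did not overlap. The higher count over all genes kept was then 1254 in place of 674.

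Against MDZ 8w, 9 of the 15 mural members were called higher and 0 lower. Bgn (biglycan), a proteoglycan of the matrix list, was at 235, 182 and 196 TPM in Control 8w, 43.3, 70.0 and 77.8 TPM in MDZ 8w, and 175, 176 and 169 TPM in RUN MDZ 8w. The runners thus lay near Control 8w, with a log2 change of -0.28 ± 0.22, and above MDZ 8w by 1.47 ± 0.22 (adjusted p = 0.0183). Among 16 matrix genes kept, 3 were higher than Control 8w in every library by 2-fold. Fn1 (fibronectin) was at 34.8, 11.1 and 11.5 TPM against 85.6, 59.8 and 87.9 TPM. Col4a2 and Lamb2, collagen and laminin chains of the basement membrane, were the others. Without Control 8w replicate 1, 7 matrix genes did not overlap and the median was 0.85 in place of 0.43. In that setting 1254 of all genes kept were higher in this way, in place of 674.

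**Figure D4:**
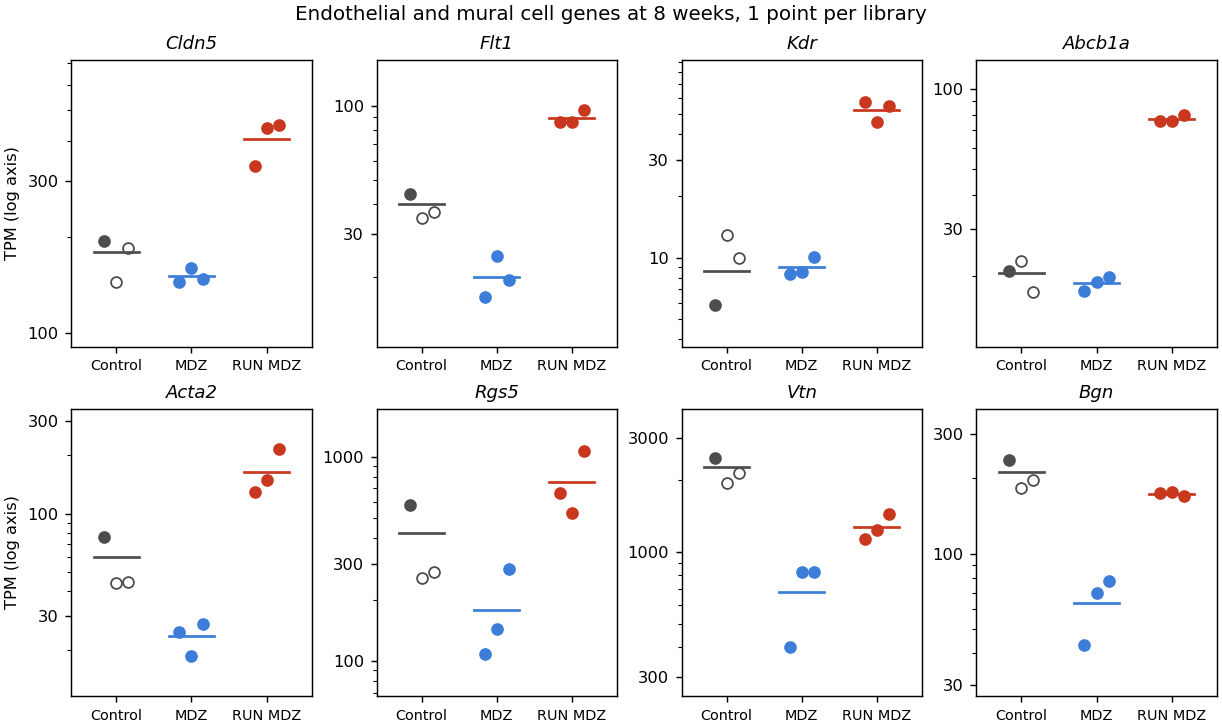
TPM on a log axis is plotted for 4 endothelial genes (top) and for 4 mural cell and matrix genes (bottom) in the 3 groups of 8-week libraries, with lines at the means; open circles are Control 8w replicates 2 and 3. RUN MDZ 8w is highest for the endothelial genes and Acta2, while Vtn and Bgn are highest in Control 8w and lowest in MDZ 8w.

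Immediate early genes, whose transcription follows stimulation within minutes and can also follow cell dissociation, were partly higher. Of 21 members kept, 7 were higher in every library by at least 2-fold (Fosb, Jun, Zfp36, Klf2, Klf4, Nr4a1 and Maff), 1 was lower in the same way (Npas4), and the median was 0.68. Fosb, an AP-1 subunit (chromosome 7, 19302696 to 19310118, GRCm38.p6), was at 235, 89.4 and 98.0 TPM in Control 8w, at 453, 349 and 509 TPM in MDZ 8w and at 793, 1003 and 980 TPM in RUN MDZ 8w (2.62 ± 0.40, adjusted p = 0.0824). Nr4a1 was 1.89-fold higher with the control pair as 1 sample in the mean, and then falls short of 2-fold. Zfp36, an mRNA decay factor, was at 64.7, 53.4 and 67.3 TPM against 190, 349 and 270 TPM. Jun was at 752, 696 and 739 TPM against 1402, 1647 and 1461 TPM.

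Not all early genes moved this way in level. Egr1, the zinc finger factor that the series added to cultured cells, was at 2706, 2231 and 2394 TPM in Control 8w and at 1705, 2032 and 1975 TPM in RUN MDZ 8w (-0.40 ± 0.18, adjusted p = 0.327), lower in every library but by less than 2-fold. Ier2 was lower in the same way. Npas4, a neuronal activity factor, was at 80.2, 69.7 and 67.2 TPM against 11.1, 3.93 and 19.1 TPM (-2.82 ± 0.72). Fos was at 1364, 1916 and 1826 TPM against 2070, 2960 and 2691 TPM, higher in every library with means under 2-fold apart. Against MDZ 8w, Klf4 (1.38 ± 0.17, adjusted p = 0.00798), Klf2 (1.24 ± 0.19, adjusted p = 0.0205) and Fosb (1.09 ± 0.18, adjusted p = 0.0245) were called higher.

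**Figure D5:**
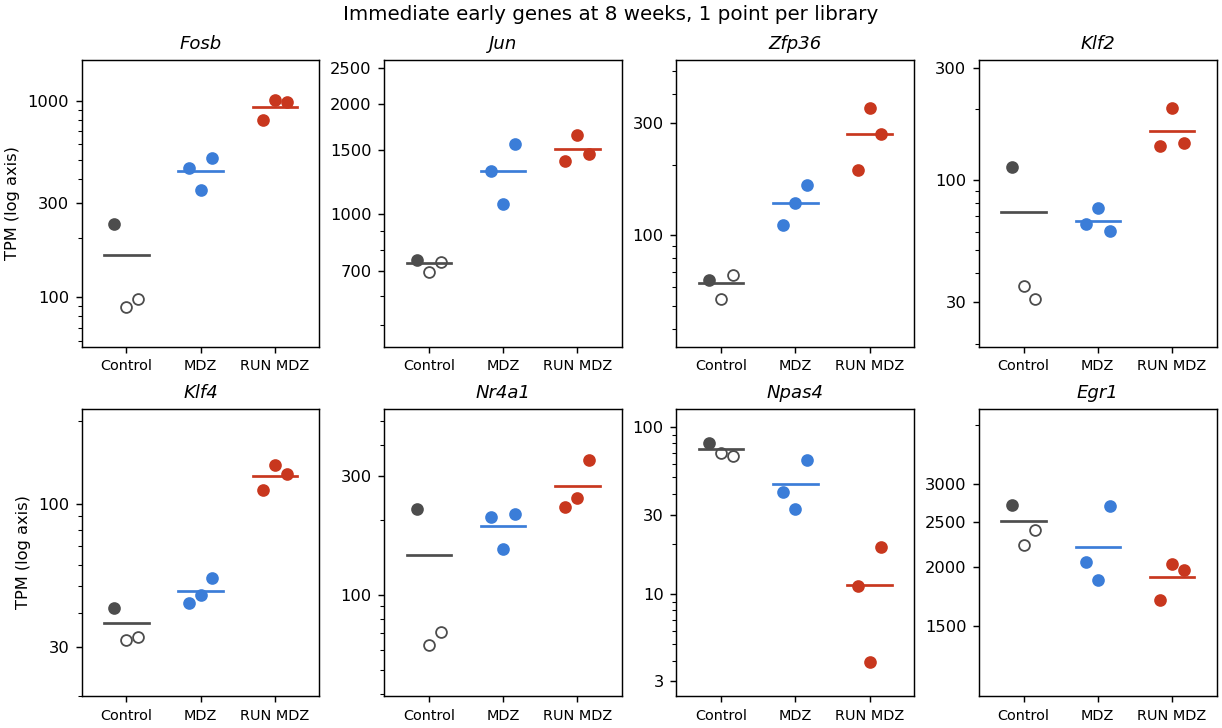
TPM on a log axis is plotted for 8 immediate early genes in the 3 groups at 8 weeks, 1 point per library with lines at the means; open circles are Control 8w replicates 2 and 3. Fosb, Zfp36 and Klf4 are highest in the runners, Jun is alike in both exposed groups, and Npas4 and Egr1 have their lowest mean in the runners.

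Promoter sequence was compared because these early genes differ in direction. The window was 250 bases before to 50 bases after each RefSeq transcription start (GRCm38.p6), and the motif of EGR factors was searched as GCGTGGGCG or GCGGGGGCG on both strands. Of the 21 early genes kept, 18 had a promoter entry and 6 held the motif. All 6 were among the 7 early genes higher by 2-fold without overlap. The 11 other early genes with an entry that were lower, overlapping or less than 2-fold apart held none, and they include genes such as Fos that were higher in every library. This was seen after the values were known and concerns few genes. It also depends on the weight of the control pair. With the pair as 1 sample in the mean, Nr4a1 was 1.89-fold higher and fell short of 2-fold. The other early genes then include a gene with the motif. Maff, with a Control 8w mean of 2.80 TPM, passed the 20 TPM filter only through the runners. Over all genes the motif was in 3.93% of 27025 promoters, in 8.83% of those of the genes kept, in 10.3% of the non-overlapping higher genes and in 8.50% of the lower ones. A stretch of 91 bases around the motif is shown for each of the 6 genes, on the gene's strand, with the motif or its reverse complement in capitals.
Fosb: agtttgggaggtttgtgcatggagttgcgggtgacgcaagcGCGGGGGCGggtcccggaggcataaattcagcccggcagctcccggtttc
Nr4a1: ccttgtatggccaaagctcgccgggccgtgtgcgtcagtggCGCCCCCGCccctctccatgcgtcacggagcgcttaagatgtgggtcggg
Zfp36: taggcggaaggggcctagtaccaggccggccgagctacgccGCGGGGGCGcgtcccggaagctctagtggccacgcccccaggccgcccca
Klf2: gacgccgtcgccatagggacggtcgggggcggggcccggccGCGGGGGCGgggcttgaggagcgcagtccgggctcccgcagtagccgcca
Klf4: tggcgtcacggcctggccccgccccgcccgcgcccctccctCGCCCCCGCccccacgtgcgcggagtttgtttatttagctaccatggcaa
Maff: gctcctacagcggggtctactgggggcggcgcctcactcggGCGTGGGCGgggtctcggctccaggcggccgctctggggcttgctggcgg

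The stretches lie at chr7:19310046-19310136 (Fosb, minus strand), chr15:101266745-101266835 (Nr4a1, plus), chr7:28379284-28379374 (Zfp36, minus), chr8:72318822-72318912 (Klf2, plus), chr4:55532620-55532710 (Klf4, minus) and chr15:79347391-79347481 (Maff, plus). The motif began 50 bases before the start in Fosb, 60 in Nr4a1, 88 in Maff, 105 in Zfp36, 194 in Klf4 and 199 in Klf2. These starts are those of the promoter entries. For Fosb the gene span given above extends past that start and covers the motif. Maff has 3 starts in the table, and 1 of them carries the motif. The motif of serum response factor, the CArG box, was in 1.81% of all promoters, in 1.58% of those of the genes kept and in 2 of the 18 early genes. A match describes these letters and is no evidence of binding.

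Feedback genes of the EGF, FGF and MAP kinase route were few but spread widely. Of 11 members kept, 4 were higher in every library by 2-fold (Fgfr3, Spred1, Dusp6 and Etv4) and 2 were lower (Dusp4 and Mycn). Fgfr3, an FGF receptor of glia, was at 15.7, 27.5 and 35.4 TPM in Control 8w and at 109, 95.5 and 123 TPM in RUN MDZ 8w (2.24 ± 0.40, adjusted p = 0.0828). Dusp4, a nuclear MAP kinase phosphatase, was at 237, 235 and 227 TPM against 129, 108 and 97.6 TPM. Mycn, a transcription factor that drives progenitor growth, was at 196, 134 and 144 TPM against 60.5, 76.7 and 33.8 TPM.

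Id genes, targets of BMP signalling that hold back differentiation, were higher. Id1 was at 28.5, 53.5 and 46.6 TPM in Control 8w and at 155, 137 and 149 TPM in RUN MDZ 8w (1.93 ± 0.33, adjusted p = 0.0824), with MDZ 8w between them at 67.3, 101 and 88.5 TPM. Id4 was at 49.5, 55.7 and 47.0 TPM in Control 8w and at 128, 222 and 179 TPM in RUN MDZ 8w, and MDZ 8w had the highest mean, at 227, 248 and 219 TPM. Id3 was higher as well, but Id2 was not (0.10 ± 0.28). Of the 17 Notch, BMP and Id members kept, the fourth one higher by 2-fold was the Notch ligand Jag1, and 0 were lower.

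Growth factors and receptors linked to running were among the higher lists. Of 16 members kept, 10 were higher in every library by at least 2-fold, 0 were lower, and the median was 1.09. This list shares Kdr and Flt1 with the endothelial genes and Clu with the radial glia genes. Vegfa, the vessel growth factor, was at 122, 43.9 and 47.0 TPM in Control 8w and at 376, 162 and 182 TPM in RUN MDZ 8w (1.57 ± 0.55), with MDZ 8w at 232, 74.4 and 135 TPM. Cxcl12, a chemokine of the niche, was at 33.7, 29.4 and 24.7 TPM against 88.0, 94.0 and 78.9 TPM, and its level in MDZ 8w (19.3, 27.4 and 30.5 TPM) was that of Control 8w. Against MDZ 8w it was called higher (1.74 ± 0.22, adjusted p = 0.00901).

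Other running-linked genes differed in form. Sepp1, the selenium carrier selenoprotein P, was at 161, 172 and 154 TPM in Control 8w and at 289, 383 and 331 TPM in RUN MDZ 8w (1.03 ± 0.21). Ntrk2, the receptor for BDNF, was at 118, 58.3 and 58.8 TPM against 233, 165 and 196 TPM. Bdnf itself was listed at 0 in all 3 Control 8w libraries and at 2.25 TPM or less in the runners, so it could not be compared. Igf1r was at 10.5, 58.0 and 56.3 TPM against 43.0, 50.6 and 51.7 TPM, where only Control 8w replicate 1 stood apart. Cxcr4, the Cxcl12 receptor, was not higher (-1.05 ± 0.59).

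GABA genes were kept for 10 members, of which 3 were higher by 2-fold without overlap. Slc6a11, the astrocytic GABA transporter GAT3, was at 50.3, 52.3 and 53.6 TPM in Control 8w, at 108, 115 and 94.6 TPM in MDZ 8w and at 142, 229 and 154 TPM in RUN MDZ 8w (1.71 ± 0.30, adjusted p = 0.0828). Abat, which breaks GABA down, was at 78.7, 5.19 and 5.29 TPM against 120, 86.3 and 104 TPM, so its difference rests on the near-identical controls. Gad1 was near 0 in Control 8w replicate 1 alone. Gabra2, a GABA-A receptor subunit that binds benzodiazepines, was at 27.7, 32.5 and 33.0 TPM against 77.7, 53.6 and 39.4 TPM (0.84 ± 0.42). Gabrb1 was outside the genes kept because Control 8w replicate 1 listed it at 0.

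Stress and metabolic genes gave single large differences rather than group ones. Hspa1b, an inducible HSP70 chaperone, was at 17.9, 24.02 and 30.7 TPM in Control 8w, at 38.1, 39.6 and 69.7 TPM in MDZ 8w and at 199.95, 236 and 264 TPM in RUN MDZ 8w (3.33 ± 0.31, adjusted p = 0.0722). Hspa1a was at 77.8, 40.0 and 36.1 TPM against 214, 280 and 280 TPM. The 2 genes are near-identical copies, so the split of reads between them is uncertain. Hspa8, the constitutive form, was lower in every running library (940 to 1102 TPM against 1726 to 2342 TPM, -0.98 ± 0.20), and the median of the 16 chaperones was 0.25, or -0.08 without Control 8w replicate 1. Slc16a1, the lactate and ketone transporter MCT1, was at 8.23, 14.6 and 15.8 TPM against 69.9, 69.6 and 85.5 TPM (2.63 ± 0.44, adjusted p = 0.0824).

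Of 17 glycolysis and lactate members kept, 5 were higher by 2-fold without overlap and 0 lower. With no fold minimum 7 were higher and 3 lower, beside 1321 and 1321 of all 8485 genes kept. Without Control 8w replicate 1 the 2-fold count was 3 and the median was 0.01 in place of 0.43. The higher count over all genes kept rose in that setting from 674 to 1254. Ddit3 and Herpud1, targets of the unfolded protein response, were lower (-1.44 ± 0.28 and -1.55 ± 0.30), while the 14 members of that list had a median of 0.07. Nuclear respiratory chain genes had 5 lower and 1 higher of 25, beside 4.8% lower and 7.94% higher of all genes kept. Without RUN MDZ 8w replicate 1, 3 of the list were lower, beside 448 of all genes kept. With the control pair as 1 sample in the means, Cox4i1 was 1.99-fold lower and fell short of 2-fold. Ndufa1, a small complex I subunit, was at 144, 171 and 196 TPM in Control 8w and at 49.2, 33.2 and 48.1 TPM in RUN MDZ 8w (-1.90 ± 0.32, adjusted p = 0.0824), with MDZ 8w at 134, 135 and 159 TPM. Cox7c and Cox4i1, subunits of cytochrome oxidase, gave -1.62 ± 0.44 and -0.98 ± 0.21.

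Cytosolic ribosomal protein genes were lower together. Of 27 members kept, 25 had negative log2 changes (median -0.63), 19 were lower in every library and 6 of these by at least 2-fold. Over all genes kept, 1321 of 8485 were lower in every library. The 2-fold count of the list was 3 without RUN MDZ 8w replicate 1 or replicate 3, and 9 without replicate 2. The lower count over all genes kept was then 448, 462 and 499, in place of 407. Rplp1, a protein of the ribosomal stalk, was at 1554, 1209 and 1203 TPM in Control 8w and at 433, 649 and 499 TPM in RUN MDZ 8w (-1.40 ± 0.25, adjusted p = 0.0828). Against MDZ 8w, 8 of the 27 were called lower and 0 higher. The sum was 17363 to 19407 TPM in Control 8w, 15611 to 20278 TPM in MDZ 8w and 9127 to 13244 TPM in RUN MDZ 8w. These are short genes, and short genes were lower more often over all genes kept; the part of length in this difference was not tested.

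Lists for cholesterol synthesis, interferon and MHC class I, glucocorticoid and metallothionein genes, and chromatin regulators had medians between -0.12 and 0.10, and all but that of the chromatin regulators changed sign when 1 running library was left out. Each had 1 or 2 members higher by 2-fold without overlap and 0 lower. With no fold minimum, chromatin regulators had 3 higher and 5 lower of 19, beside 1321 higher and 1321 lower of all 8485 genes kept. H2-K1, an MHC class I heavy chain, was at 18.5, 63.5 and 48.0 TPM against 106, 107 and 116 TPM. Hmgcs1, which makes HMG-CoA for cholesterol synthesis, was at 85.0, 134 and 120 TPM against 158, 222 and 259 TPM, higher in every library with means close to 2-fold apart.

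Among all genes kept, the 12 with the largest median difference in each direction were taken from those 2-fold apart without overlap. This median was taken over the 3 Control 8w libraries as deposited, so the near-identical pair largely sets the control value. The order thus favours genes that are low in that pair in the higher direction, and genes that are high in it in the lower direction. The 12 higher genes were Galnt11, Nacc2, E130309F12Rik, Tagln, Cend1, Ube2e1, Cdc34, Inpp5a, Snapc2, Abat, Maff and Fgfrl1. In 11 of them Control 8w replicate 1 was several-fold above replicates 2 and 3, as for Galnt11 (23.7, 0.36 and 0.36 TPM against 56.7, 40.9 and 56.2 TPM in the runners). In the limma fit with the pair as 1 sample, Galnt11 gave 3.16 ± 1.22 (adjusted p = 0.251). Cend1, a gene of neuronal cell cycle exit, was the exception, at 0.09, 2.23 and 1.46 TPM in Control 8w, 42.7, 21.8 and 33.0 TPM in MDZ 8w and 74.8, 56.4 and 52.6 TPM in RUN MDZ 8w (5.13 ± 0.70, adjusted p = 0.0824). Its Control 8w mean was 0.97 TPM, so it passed the 20 TPM filter only through the runners. The size of its change rests on control values near the floor.

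The 12 lower genes were Hist1h4j, 4930526I15Rik, H2-M5, Zfp74, 2810029C07Rik, Naa38, Hyi, Tbx6, Npas4, 5430416N02Rik, Akip1 and Dna2. In Hist1h4j, Control 8w replicate 1 was at 18.9 TPM and replicates 2 and 3 were at 77.1 and 73.7 TPM. H2-M5, Tbx6 and 5430416N02Rik had a gap in the same direction. By contrast, 4930526I15Rik, Naa38, Hyi, Npas4 and Akip1 were highest in replicate 1. The uncharacterised 4930526I15Rik was at 135, 67.7 and 98.3 TPM in Control 8w and at 17.5, 11.6 and 10.0 TPM in RUN MDZ 8w. Dna2, a helicase and nuclease of replication, was at 30.02, 46.0 and 43.0 TPM against 8.64, 6.75 and 6.80 TPM, with the highest MDZ 8w library at 23.02 TPM. For 10 of the 12 genes, MDZ 8w lay between the means of the other groups.

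Markers of cells outside the neural and vascular lineages were checked in the same libraries. All 10 blood markers, the haemoglobin genes among them, were at 0 in every Control 8w and RUN MDZ 8w library. The haemoglobin genes were also at 0 in every MDZ 8w library, and so was Eno1, a gene of the glycolysis list. Some genes were thus listed at 0 throughout, and the haemoglobin zeros cannot show whether blood cells were present. The 18 microglia genes summed to 138 to 405 TPM in Control 8w and 104 to 322 TPM in RUN MDZ 8w, and 2 of them were kept. Cd68, a lysosomal protein of phagocytes, was at 52.2, 46.5 and 52.9 TPM against 10.7, 8.19 and 9.56 TPM (-2.31 ± 0.52). Ttr, the transthyretin of choroid plexus, was at 0.12, 4481 and 4744 TPM in Control 8w and at 0.12, 3552 and 0.21 TPM in RUN MDZ 8w, so 1 or more libraries of each group carried it and others did not; its part in other results was not tested.

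Genes of motile cilia, which mark ependymal cells, were left out by the filter because Control 8w listed them at 0. Foxj1, the master factor of motile cilia, was at 0 in all 3 Control 8w libraries, at 11.1, 7.58 and 6.98 TPM in MDZ 8w and at 41.2, 90.1 and 71.6 TPM in RUN MDZ 8w. Tmem212 was at 0 in Control 8w and at 74.4, 139 and 176 TPM in the runners, and Dynlrb2, a dynein light chain, at 0 and at 75.9, 115 and 110 TPM. Against MDZ 8w, Foxj1 (2.80 ± 0.34, adjusted p = 0.00798), Tmem212 (3.02 ± 0.33, adjusted p = 0.00476) and Dynlrb2 (2.90 ± 0.33, adjusted p = 0.00593) were called higher. In all, 71 genes with a mean of at least 20 TPM were at 0 in every Control 8w library, and 42 of them were above 0 in every RUN MDZ 8w library. They include widely used genes such as Atg5 and Snf8, so a 0 in Control 8w is given here as listed and no fold was computed.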

How the data were processed

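RNA from sorted dentate gyrus cells was measured in 3 libraries per group at 8 weeks. The authors deposited values that were read here as TPM, 1 per gene and library; the unit is not named per the labels, and it was taken from the library sums. How the authors normalized these deposited TPM values is recorded in no label or header. Per the submitters' processing notes, TopHat, Bowtie2, DESeq2 and the mm10 build were used; the sources used here give neither roles nor versions. Sequencing depth is unknown, so no counting interval is given. Log2(TPM + 1) was tested with limma 3.58.1 in R 4.3.3 over 15125 genes with a mean of at least 1 TPM, with Benjamini-Hochberg adjustment and a threshold of 0.05. That fit held the controls, with replicates 2 and 3 averaged, and the runners; runners against exposed mice without a wheel were fitted separately. The fit was tested on simulated data with equal spread in both groups. In the real libraries, Control 8w replicate 1 lay further from replicates 2 and 3 than any running libraries lay from each other. The simulation thus does not cover the spread of these data. Nothing in the labels says which mice went into which pool, so p-values measure the spread between these libraries.

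The genes and lists were chosen with earlier results of these data known. Genes named were the 12 largest differences without overlap in each direction (no gene was called), the 2 most abundant members of a list and a set list of stem cell, neuronal, glial and vascular genes; other genes named were chosen after their values were seen. Values of some genes are not reported here. Promoters and gene spans came from RefSeq (GRCm38.p6). Alternatives covered the pseudocount, filters, scaling, variance model, left-out libraries and a replicate block; scaling, left-out libraries and the weight of the control pair for the counts without overlap were added after seeing the data.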

Additional observations from a re-analysis of the deposited data

How the results depend on the processing

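The number of genes called depended on how the spread was estimated. With a pseudocount of 5, 1 gene was called higher; with only genes of at least 20 TPM in the fit, 3 were, with Cldn11 and Hspa1b among them (both adjusted p = 0.047), and after quantile normalization the same 3. Keeping Control 8w replicates 2 and 3 apart gave 247 higher and 245 lower calls, and all 8-week samples in 1 fit gave 319 and 278. Leaving out 1 library gave 0 to 442 higher and 0 to 106 lower calls; 442 and 106 came without Control 8w replicate 1, where Control 8w is 1 sample assumed to vary like the runners. A pseudocount of 0.1, no filter, median-of-ratios scaling, library quality weights and a robust prior gave 0 calls among the genes kept. With a replicate block there were also 0 calls; correlations of same-numbered libraries were 0.05, 0.05 and -0.02, so they share only a number. Genes without overlap numbered 1321 higher and 1321 lower with no fold minimum and 286 and 241 at a mean of at least 50 TPM. Leaving out 1 library gave 696 to 1254 higher and 436 to 675 lower, with 1254 and 675 without Control 8w replicate 1. With replicates 2 and 3 as 1 sample in the means they were 682 and 426. No named gene was called, so no call could reverse; over 1819 pairs of a named gene and an alternative, the sign differed in 39, and 36 and 37 named genes were called with all 8-week samples in 1 fit and with replicates 2 and 3 kept apart.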
